A study of Mus musculus with 5 samples.

Results

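The genes described here belong to squamous differentiation and the cornified envelope of squamous epithelium, apart from the small proline-rich proteins. For short they are called cornified envelope genes, though not all of them encode parts of the envelope. They were taken as a list of 33 genes of squamous differentiation, matched by gene symbol to every probe set that carries that one symbol. Of the 33 listed genes 32 had a probe set, 47 probe sets in all, among 18193 genes tested, and cornulin (Crnn) had none. Expression was measured in RNA of the whole esophagus of CC10-rtta/teton-IL-13 mice on the FVB/N background, aged 3 to 4 months, with Affymetrix Mouse Genome 430 2.0 arrays. In this line doxycycline induces IL-13, a type 2 cytokine, through a transactivator under the CC10 promoter, which works in club cells of the airway. The Dox group (n = 3 arrays) was fed doxycycline and the NoDox group (n = 2 arrays) a regular diet, and both carry the transgenes, so no group without them, and no doxycycline-fed mice lacking them, were analysed here. Nothing in the labels ties an array to its own animal, and the spread behind every p-value is that among these arrays, which may be technical.

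In a squamous epithelium, cells leaving the basal layer replace their plasma membrane from the inside with a shell of cross-linked protein. Plakins and involucrin form the first scaffold, transglutaminases join it by covalent bonds, and S100 fused-type proteins such as filaggrin and hornerin are added to it, while lipids are attached to its outer face. The rodent esophagus is keratinised, so its lining makes many of the same proteins as skin.

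Each value is the signal relative to the average of both NoDox arrays, so 1 is that average and the scale carries no level of its own. A level was worked out from the ratios in units called steps here, the smallest unit in which the signals appear to have been stored. For bright probe sets, above 50000 steps, it could not be. Of the 32 genes, 25 lie above that range and 7 within it. Levels enter the variance trend of the test, choose the probe set that stands for a gene and split the genes into those above and within the range. The esophageal keratins Krt4 and Krt13, defining markers of this lining, lie above the range, and their log2 fold changes are -0.03 ± 0.14 and -0.10 ± 0.14 (SE). Of 4 esophageal epithelium markers 0 passed the limma test (1 with an unadjusted p under 0.05). Of 12 epithelial keratin and identity genes 0 passed (3 at the unadjusted p). The medians of these lists in turn were -0.01 and 0.03. The genes at the unadjusted p were Krt14 (0.52 ± 0.19), higher and in both lists, and Krt15 (-0.41 ± 0.17) and Trp63 (-0.34 ± 0.13), lower. All 12 lie above the range, where 23.7% of genes were lower and 7.63% higher at that p.

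Of the 32 cornified envelope genes 5 fell in Dox and 0 rose, at an adjusted p under 0.05 in limma with Benjamini-Hochberg adjustment over all 18193 genes. The 5 are hornerin (Hrnr), transglutaminase 3 (Tgm3), periplakin (Ppl), Pof1b and sciellin (Scel), and their falls lie between 1.63-fold for Scel and 3.27-fold for Hrnr. Over all genes 1.23% fell and 1.35% rose, against 15.6% lower for these genes. All 5 lie above the recovered range, where 3.65% of 3290 genes fell and 2.83% rose, against 20.0% lower for the 25 cornified envelope genes above it. At an unadjusted p under 0.05, 12 of the 32 were lower (37.5%) and 1 higher, against 10.8% of all genes lower and 6.85% higher. Above the range 10 of the 25 were lower at that p (40.0%) and 1 higher, against 23.7% lower and 7.63% higher of all genes there. Leaving out NoDox replicate 1 or NoDox replicate 2 took the number of lower genes to 0, leaving out Dox replicate 3 to 1, and leaving out Dox replicate 2 to 9. The count over all genes, 223 lower with all arrays, moved with it in the same fits, to 12, 15, 50 and 507.

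Ppl and Scel are the members of the scaffold group that fell. Periplakin is a plakin that ties the envelope to desmosomes and keratin filaments. In probe set 1460732_a_at its ratio was 0.498, 0.617 and 0.520 in Dox replicates 1, 2 and 3, against 0.949 and 1.05 in NoDox replicates 1 and 2. All Dox arrays lay below both NoDox arrays, and the log2 fold change was -0.88 ± 0.15 (SE; limma adjusted p = 0.0184). Sciellin, an envelope precursor cross-linked by transglutaminases, had (1422837_at) 0.638, 0.630 and 0.580 in Dox, against 0.990 and 1.01 in NoDox. The 3 Dox values lie close together and apart from NoDox, with a log2 fold change of -0.70 ± 0.13 (adjusted p = 0.0278). Fitted among all probe sets, the same probe set did not pass (limma adjusted p = 0.0504).

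Envoplakin (Evpl), the plakin that pairs with periplakin, had 0.532, 0.773 and 0.629 in Dox, against 0.892 and 1.11 in NoDox. Its Dox arrays also lay below both NoDox arrays, but the log2 fold change of -0.64 ± 0.18 did not pass (adjusted p = 0.113). Involucrin (Ivl), the glutamine-rich scaffold protein, had a log2 fold change of -0.12 ± 0.31 with a 95% interval of -0.83 to 0.58. Cornifelin (Cnfn), an envelope component, had -0.28 ± 0.15. The median log2 fold change of the 5 scaffold genes was -0.64, with 2 of 5 lower and 0 higher. Over all genes 1.23% were lower and 1.35% higher, and above the recovered range 3.65% and 2.83%.

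Hrnr had the lowest log2 fold change of the 32. Hornerin is a repeat-rich relative of filaggrin that becomes part of the envelope. In probe set 1451613_at its ratio was 0.247, 0.386 and 0.301 in Dox, against 1.0003 and 0.9997 in NoDox. The NoDox arrays were nearly identical and every Dox array was far below them, a log2 fold change of -1.71 ± 0.19 (adjusted p = 0.00265). Without NoDox replicate 1 or NoDox replicate 2 its adjusted p was 0.0666 or 0.0556.

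Filaggrin (Flg), whose processed units bundle keratin, had a log2 fold change of -0.49 ± 0.22 (adjusted p = 0.305), and its Dox and NoDox values overlap. Repetin (Rptn) had -0.41 ± 0.14 with all Dox arrays below both NoDox arrays (adjusted p = 0.163). Trichohyalin (Tchh), best known from the hair follicle, had 0.27 ± 0.62 at a level of 1075 steps, with a 95% interval of -1.14 to 1.68. In the RefSeq gene order Flg, Hrnr, Rptn and Tchh follow one another on mouse chromosome 3 with 0 protein-coding genes between neighbours. Within this run 1 of 4 genes passed the test. Of the 7 genes measured in the epidermal differentiation complex, the cluster that holds these genes, 1 fell (14.3%), with a median of -0.41. Of the 25 outside it 4 fell (16%), with a median of -0.26. Over all genes 1.23% fell and 1.35% rose, and above the recovered range 3.65% and 2.83%. Above that range lie 4 of the 7 genes and 21 of the 25, so the comparison mixes position with level.

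Tgm3 fell among the transglutaminases, the enzymes that cross-link the envelope. It has 2 probe sets above the recovered range, and their mean log2 ratio stands for the gene. The first, 1421355_at, had 0.350, 0.530 and 0.263 in Dox, against 1.04 and 0.961 in NoDox. The second, 1440150_at, had 0.478, 0.688 and 0.623 in Dox, against 0.978 and 1.02 in NoDox. In both probe sets every Dox array was below both NoDox arrays, but the first went further down in Dox replicate 3. The gene's log2 fold change was -1.11 ± 0.19 (adjusted p = 0.0199). Fitted singly among all probe sets, where 0.477% were called lower, the first gave -1.45 ± 0.25 (adjusted p = 0.0373) and the second -0.76 ± 0.18 (adjusted p = 0.0929). Tgm1, the membrane-anchored form, had -0.43 ± 0.17 (adjusted p = 0.217) with all Dox arrays below NoDox, and Tgm5 had 0.08 ± 0.19.

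Pof1b, an actin-binding protein of epithelial cell junctions, had (1427492_at) 0.642, 0.595 and 0.532 in Dox, against 1.02 and 0.976 in NoDox. The groups do not overlap, and the log2 fold change was -0.77 ± 0.14 (adjusted p = 0.0263). Tgm3, Ppl, Pof1b and Scel each lost the call without Dox replicate 3, without NoDox replicate 1 and without NoDox replicate 2, with adjusted p-values of 0.0886 to 0.261 in those fits. Each kept it without Dox replicate 1 and without Dox replicate 2. Quantile normalization of the recovered signals gave Tgm3, Pof1b and Scel adjusted p-values of 0.0514, 0.0603 and 0.0668, and a fit without a variance trend called 0 of the 5 genes (adjusted p of 0.139 to 0.222). A single NoDox array left in a fit is assumed to vary like the Dox arrays.

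**Figure D1:**
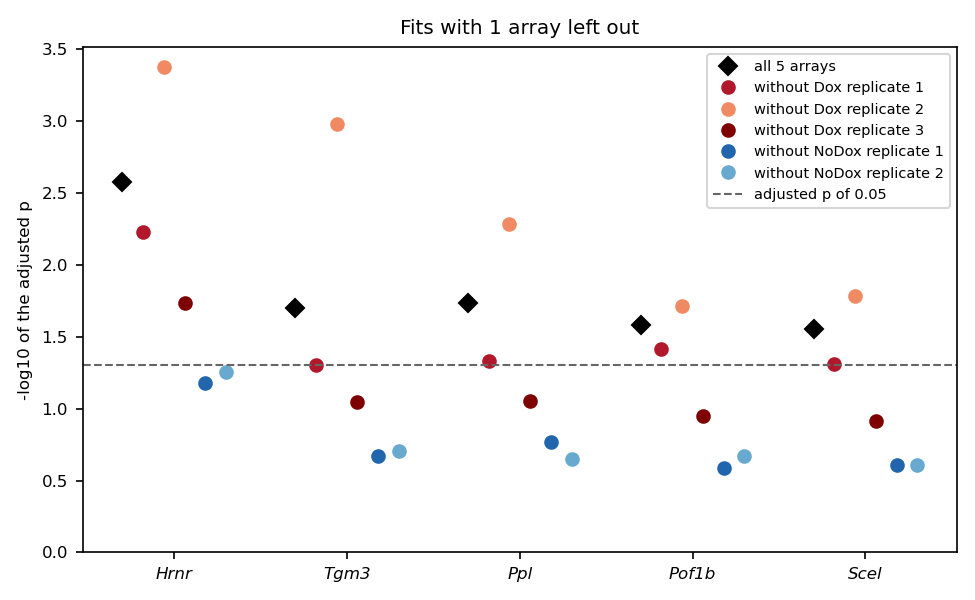
The vertical axis gives -log10 of the limma adjusted p of the 5 genes that fell, with all 5 arrays (diamonds) and with each array left out in turn (circles, by array), and the dashed line marks an adjusted p of 0.05. Hrnr stays above the line without any 1 Dox array, and all 5 genes are below it when NoDox replicate 1 or NoDox replicate 2 is left out.

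The sequences before the transcription start are shown for Hrnr, Tgm3, Scel and Pof1b, which fell, and for Flg and Rptn, which flank Hrnr and did not pass. They are the 250 bases before each start, 5′ to 3′ on the gene's strand, from RefSeq (GRCm38.p6). They cover chr3:93319499-93319748 (plus strand) for Hrnr, chr2:130012090-130012339 (plus) for Tgm3, chr14:103513091-103513340 (plus) for Scel, chrX:112698652-112698901 (minus) for Pof1b, chr3:93273296-93273545 (plus) for Flg and chr3:93393449-93393698 (plus) for Rptn. Capitals mark matches to 5 motifs of regulators of squamous genes, of STAT6 and of the core promoter.
Hrnr: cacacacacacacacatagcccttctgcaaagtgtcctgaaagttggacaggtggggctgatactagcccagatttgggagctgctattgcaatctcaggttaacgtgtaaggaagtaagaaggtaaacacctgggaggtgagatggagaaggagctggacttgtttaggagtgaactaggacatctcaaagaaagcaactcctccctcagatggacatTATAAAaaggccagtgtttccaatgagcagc
Tgm3: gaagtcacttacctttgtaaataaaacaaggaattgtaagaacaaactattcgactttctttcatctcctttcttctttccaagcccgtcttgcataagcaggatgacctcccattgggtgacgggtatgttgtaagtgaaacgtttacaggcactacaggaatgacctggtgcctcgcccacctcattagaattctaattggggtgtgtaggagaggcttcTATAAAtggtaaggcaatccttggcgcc
Scel: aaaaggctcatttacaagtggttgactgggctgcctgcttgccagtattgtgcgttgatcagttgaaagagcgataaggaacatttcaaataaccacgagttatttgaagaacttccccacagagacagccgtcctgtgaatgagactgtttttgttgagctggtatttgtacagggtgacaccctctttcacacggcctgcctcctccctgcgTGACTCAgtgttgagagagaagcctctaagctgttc
Pof1b: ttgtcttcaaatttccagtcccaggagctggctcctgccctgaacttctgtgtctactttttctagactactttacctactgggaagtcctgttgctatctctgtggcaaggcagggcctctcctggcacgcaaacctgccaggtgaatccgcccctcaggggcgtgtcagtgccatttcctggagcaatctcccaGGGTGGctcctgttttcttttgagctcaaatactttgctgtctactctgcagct
Flg: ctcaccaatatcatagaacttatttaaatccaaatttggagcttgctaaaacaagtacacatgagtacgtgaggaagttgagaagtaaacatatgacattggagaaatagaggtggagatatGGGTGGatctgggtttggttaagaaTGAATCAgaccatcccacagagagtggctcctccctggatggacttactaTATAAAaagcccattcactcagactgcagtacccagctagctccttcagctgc
Rptn: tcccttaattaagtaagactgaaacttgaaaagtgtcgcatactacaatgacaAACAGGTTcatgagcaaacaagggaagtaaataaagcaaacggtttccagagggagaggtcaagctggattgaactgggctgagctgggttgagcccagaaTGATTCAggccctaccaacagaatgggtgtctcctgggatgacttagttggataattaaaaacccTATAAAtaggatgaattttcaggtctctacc
The TATA box motif TATAAA (gene strand only) begins 31 bases before the start in Hrnr and Rptn, 28 in Tgm3 and 53 in Flg. It is in 8.12% of the same windows of 27025 genes and in 9 of the 28 cornified envelope genes that have a window. The AP-1 motif TGANTCA (either strand) begins 36 bases before the start in Scel, 103 in Flg and 96 in Rptn, and is in 6.87% of all windows and 9 of 28 of these. The KLF motif CCACCC (either strand) is in the capitals of Pof1b and Flg, in 27.7% of all windows and in 11 of 28. The grainyhead-like motif AACNGGTT is in Rptn alone among the 28 (1.71% of all windows), and a STAT6 motif with a 4-base spacer is in Rhcg alone (5.86% of all windows). A match describes letters in this window and is not evidence that a factor binds there. The 4 genes shown that fell have no motif of these in common. Flg and Rptn hold the same TATAAA letters as Hrnr, in Rptn at the same distance from the start and in Flg further from it.

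In the proteases, caspase-14 (Casp14), which helps degrade filaggrin, had 0.395, 0.660 and 0.580 in Dox, against 0.940 and 1.06 in NoDox. All Dox arrays were below both NoDox arrays, and the log2 fold change of -0.91 ± 0.21 did not pass (adjusted p = 0.0635). A second, dimmer Casp14 probe set had 0.14 ± 0.30. Asprv1, a protease that processes profilaggrin, had -0.23 ± 0.14 without overlap between the groups.

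Mal, a lipid raft protein of apical membrane traffic, had the widest spread among the larger differences. Its ratio was 0.185, 0.845 and 0.346 in Dox, against 1.20 and 0.798 in NoDox. Dox replicates 1 and 3 were low, while Dox replicate 2 lay between the NoDox arrays, so the groups overlap and the log2 fold change of -1.37 ± 0.51 did not pass (adjusted p = 0.206). Without Dox replicate 2 the adjusted p was 0.0109. The second Mal probe set has the same pattern, with 0.314, 1.07 and 0.403 in Dox, against 1.19 and 0.811 in NoDox. The ammonia transporter Rhcg had 0.690, 1.39 and 2.14 in Dox, against 0.494 and 1.51 in NoDox, at a level of 299 steps. The groups overlap in part, with Dox replicate 3 above and NoDox replicate 1 below all other arrays, and its log2 fold change of 0.56 ± 0.96 leaves a 95% interval of -1.62 to 2.73. The membrane protein Emp1 had -0.24 ± 0.14.

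Among the calcium-binding proteins, S100a14 had 0.618, 0.895 and 0.612 in Dox, against 0.953 and 1.05 in NoDox. Its Dox arrays lay below NoDox with a log2 fold change of -0.52 ± 0.19 (adjusted p = 0.194), and its neighbour S100a16 had -0.35 ± 0.17. The calmodulin-like Calml3 had -0.26 ± 0.16. Annexin A8 (Anxa8) was the single member with every Dox array above both NoDox arrays, at 1.46, 1.50 and 1.17 in Dox, against 0.983 and 1.02 in NoDox. Its log2 fold change of 0.45 ± 0.15 did not pass (adjusted p = 0.172). These Anxa8 values are means over 2 probe sets. The groups do not overlap in 1417732_at, but in 1425789_s_at Dox replicate 3 (1.021) lay below NoDox replicate 2 (1.028). Annexin A1 (Anxa1), a membrane-binding envelope component, had 0.03 ± 0.15.

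Of the Ly6 family, small lipid-anchored surface proteins, Ly6g6c had 0.518, 0.822 and 0.783 in Dox, against 0.888 and 1.10 in NoDox. These are means over its 3 probe sets. The groups do not overlap in these means, but Dox replicate 1 was lower than the others. The log2 fold change of -0.51 ± 0.21 did not pass (adjusted p = 0.254). In probe set 1449789_x_at the groups overlap, with 0.835 and 0.896 in Dox replicates 2 and 3 against 0.765 in NoDox replicate 1. Ly6d and Lypd3, both surface proteins of stratified epithelium, had -0.05 ± 0.16 and 0.07 ± 0.15. The corneodesmosome and secreted proteins also had small differences. Corneodesmosin (Cdsn), which holds cornified cells together, had -0.08 ± 0.14, suprabasin (Sbsn) -0.32 ± 0.16, dermokine (Dmkn) -0.16 ± 0.13 and Krtdap -0.13 ± 0.15. Sbsn, Dmkn and Krtdap are consecutive protein-coding genes in the RefSeq order, and 0 of the 3 passed (0 also at an unadjusted p under 0.05). Of the lipid genes, the ceramide synthase Cers3 had -0.26 ± 0.13 with no overlap between groups, and the lipid transporter Abca12 had 0.16 ± 0.29.

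**Figure D2:**
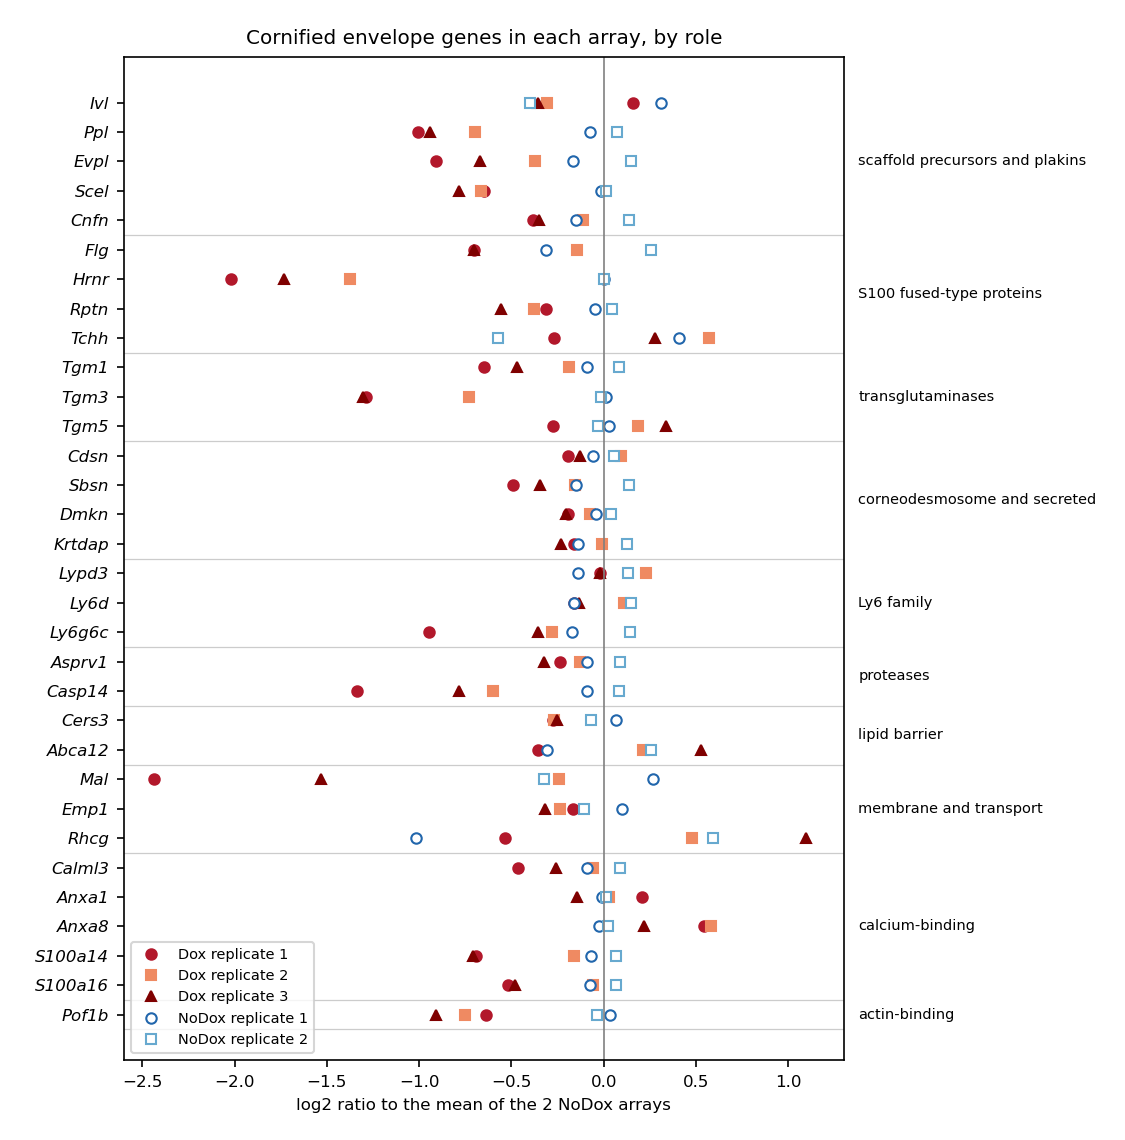
Each row is 1 cornified envelope gene, grouped by role, and the horizontal axis is the log2 ratio to the NoDox mean, with filled symbols for the 3 Dox arrays and open symbols for the 2 NoDox arrays. All filled symbols lie left of the open ones in 16 of 32 rows, among them Hrnr, Tgm3, Ppl, Pof1b and Scel. This holds for 22.5% of all genes and 39.8% of those above the recovered range. The square of Dox replicate 2 is the rightmost filled symbol in 22 of 32 rows.

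The log2 fold change was below 0 in 25 of the 32 genes, 78.1% against 57.9% of all genes. Their median was -0.27, against -0.08 over all genes. Above the recovered range 22 of 25 were below 0, 88.0% against 71.7% of all genes there, with medians of -0.32 and -0.16, while the 7 genes within the range had a median of 0.08. All Dox arrays lay below both NoDox arrays in 16 of 32 genes (22.5% of all genes) and above both in 1 (13.7%). Above the range the first of these counts was 15 of 25, or 60.0%, against 39.8% of all genes there. These are descriptions of a list, and in whole-organ RNA fewer cells of a type and less RNA per cell cannot be told apart.

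**Figure D3:**
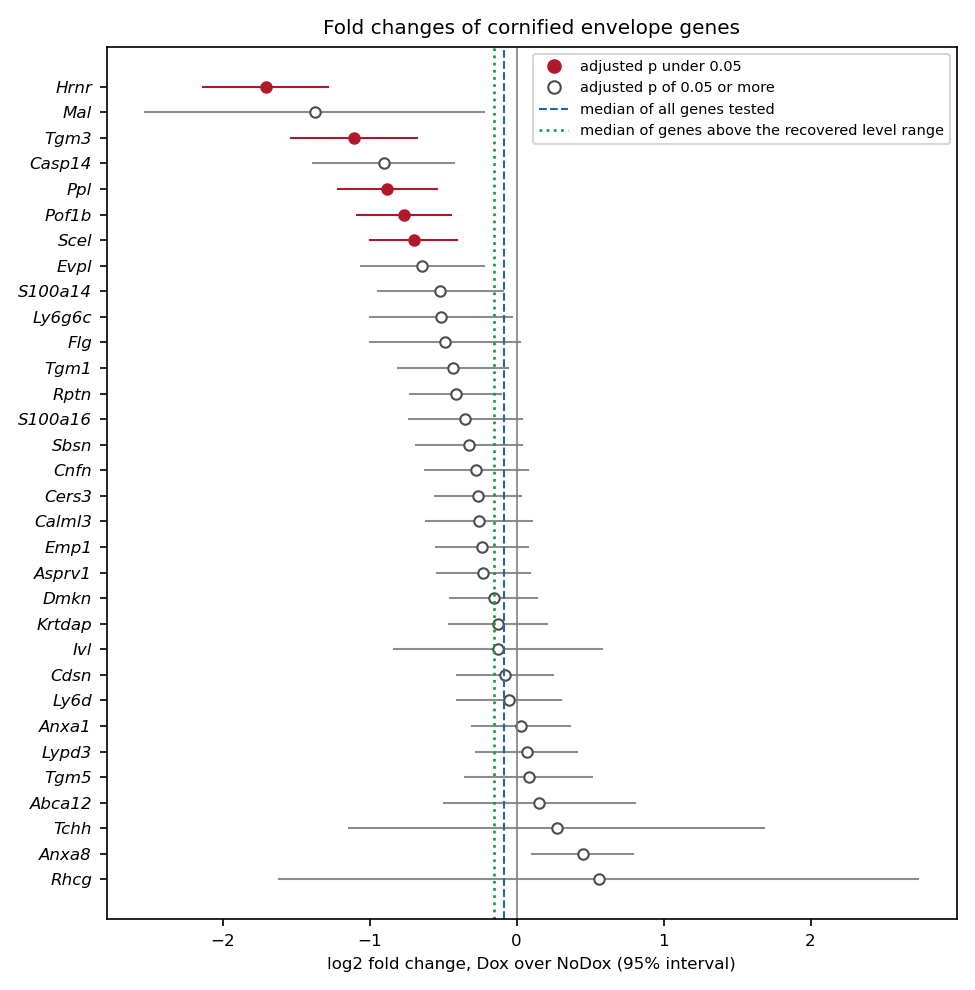
Each row gives the log2 fold change of 1 gene, Dox over NoDox, with its 95% interval from limma, filled where the adjusted p is under 0.05. The dashed and dotted lines are the medians of all genes (-0.08) and of genes above the recovered range (-0.16). The 5 filled points lie between -1.71 and -0.70, and Tchh and Rhcg have the widest intervals on the positive side.

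The Dox arrays did not move alike. Over the 32 genes the median log2 ratio was -0.42, -0.15 and -0.35 in Dox replicates 1, 2 and 3, against -0.06, -0.09 and -0.11 over all genes. Dox replicate 2 held the highest of the 3 Dox values in 22 of the 32 genes and the lowest in 0, while over all genes it was highest in 34.2%. The lowest Dox value was in replicate 1 for 19 genes and in replicate 3 for 13. In the other 10 genes the highest Dox value was in replicate 1 for 6 (Ivl, Rptn, Scel, Emp1, Anxa1 and Pof1b) and in replicate 3 for 4 (Tgm5, Cers3, Abca12 and Rhcg). The 9 genes called without Dox replicate 2 are Mal (adjusted p = 0.0109), Casp14 (adjusted p = 0.0188), Evpl (0.0287) and S100a14 (0.0183) with the 5 above.

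Where a gene has several probe sets, they can be set against one another. This holds for 12 of the 32 genes, and their probe sets have the same sign in 9. The exceptions are Casp14, Ivl and Rptn, in which the probe sets with a positive value all had a recovered level, and 0 of these passed alone. The second Ivl probe set had 0.77 ± 0.93 and a second Rptn probe set 0.21 ± 0.73, at 175 and 810 steps. The 3 Ly6g6c probe sets lay between -0.63 and -0.44, and the 3 of Sbsn between -0.59 and -0.13. The dim second probe set of Scel, at 146 steps, had -0.40 ± 0.96. Averaging all probe sets of a gene gave Scel -0.55 with an adjusted p of 0.499.

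**Figure D4:**
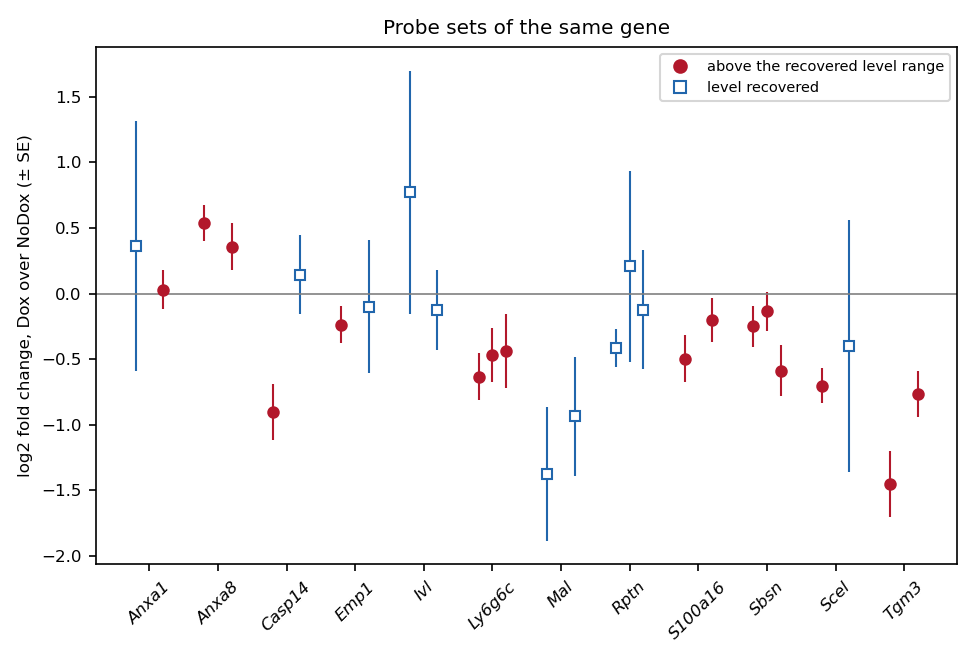
The vertical axis is the log2 fold change of each probe set with its SE, for the 12 genes that have several, filled above the recovered level range and open where a level was recovered. Casp14, Ivl and Rptn have probe sets on both sides of 0, and the Tgm3 probe sets lie at -1.45 and -0.76.

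Other genes of the envelope and its lipids, 46 listed and 40 tested, gave 4 lower and 0 higher, 10% lower against 1.23% of all genes, with a median of -0.37. At an unadjusted p under 0.05, 18 were lower (45%, against 10.8% of all genes) and 0 higher. The log2 fold change was below 0 in 37 of the 40 (92.5%, against 57.9% of all genes), and 24 had every Dox array below both NoDox arrays (60.0%, against 22.5%). Of the 40 genes 31 lie above the recovered range, where the shares over all genes are 3.65% lower, 23.7% lower at the unadjusted p, 71.7% below 0 and 39.8% without overlap. The acid lipase of late differentiation Lipm had 0.467, 0.556 and 0.538 in Dox, against 0.988 and 1.01 in NoDox, a log2 fold change of -0.95 ± 0.14 (adjusted p = 0.0108). Its relative Lipk had -1.06 ± 0.16 (adjusted p = 0.0127) and the late cornified envelope gene Lce1h -1.14 ± 0.21 (adjusted p = 0.0265). Lce genes are near-identical copies, so the probe set may take up signal of other members. The fourth gene was Sdr9c7, a dehydrogenase of barrier lipids, named after its value was seen, at -0.997 ± 0.20 (adjusted p = 0.0399). Loricrin (Lor), the main envelope protein of skin, had -0.06 ± 0.14.

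Markers of other tissues moved between the same arrays. All 6 leukocyte markers lay higher in every Dox array than in NoDox, against 13.7% of all genes and 12.5% of those above the recovered range. Their median ratios were 2.55, 2.11 and 3.95 in Dox replicates 1, 2 and 3, against 1.02 and 0.978 in NoDox. Of the leukocyte markers 3 passed, Tyrobp (1.42 ± 0.19), Laptm5 (1.50 ± 0.24) and Cd53 (1.44 ± 0.26). Over all genes 1.35% were called higher, and 2.83% of those above the range. All 6 lung markers also lay higher in every Dox array than in NoDox. Their median ratios were 4.95, 3.26 and 8.91 in Dox, against 1.05 and 0.953 in NoDox. Of the lung markers 4 passed, led by the surfactant genes Sftpc (2.18 ± 0.25), Sftpa1 (2.99 ± 0.37) and Sftpd (2.71 ± 0.36), with Ager (2.77 ± 0.42) the fourth. Dox replicate 2, in which the cornified envelope genes were least low, had the smallest medians of both lists, and Dox replicate 3 the largest. The order did not match in the other arrays, since the cornified envelope genes had their lowest median in Dox replicate 1.

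Of 4 skin markers 0 passed (1 lower at an unadjusted p under 0.05). The keratins Krt1 and Krt10 were below both NoDox arrays in Dox replicates 1 and 3 and between them in replicate 2, with log2 fold changes of -0.58 ± 0.33 and -0.99 ± 0.41. The other members, Krt2 (0.56 ± 1.50) and Lor, did not have this pattern. Of 6 skeletal muscle, 6 smooth muscle, 6 stroma and 2 thyroid markers 0 passed in each list. At the unadjusted p 1 skeletal muscle, 4 smooth muscle and 1 stroma marker were lower and 0 higher. The shares lower at that p were 10.8% of all genes and 23.7% of those above the range. Medians of these 3 lists were -0.20, -0.50 and -0.17. The thyroid median of 1.33 comes from Tg (0.08 ± 1.07) and Slc26a4 (2.58 ± 0.73), which differ widely. Of these Slc26a4 was higher at the unadjusted p, against 6.85% of all genes. All 6 smooth muscle markers had a log2 fold change below 0 (57.9% of all genes, 71.7% of those above the range). In 5 of them every Dox array lay below both NoDox arrays (22.5% of all genes, 39.8% of those above the range). Most of these markers lie above the recovered range, so no summed level can be given. The part of leukocyte, lung, skin and muscle RNA in the lower values of cornified envelope genes was not tested.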

How the data were processed

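RNA of the esophagus was measured in 3 Dox and 2 NoDox arrays, a grouping taken from the titles. Per the labels, MAS 5.0 made the signals with its defaults and GeneSpring 7.3.1 normalized them pair-wise. The deposited values are a ratio. On inspection its denominator is the average of both NoDox arrays, because the pair of NoDox values adds up to 2 (tolerance 0.0001) for 45099 of 45101 probe sets, which differs from a pair-wise control. The ratios carry no level and no detection call, and the number of arrays limits the precision.

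Levels were recovered by searching whole step numbers up to 50000 that give the 5 ratios of a probe set within a relative tolerance of 3e-07, after finding 1 scale factor per array. A level was found for 40020 of 45098 probe sets (88.7%), and for 10 of 4000 with shuffled ratios (0.25%). Probe sets without a solution were taken as above the range and given one common level, since a bound worked out from the ratios follows the fold change. A gene was represented by its probe set of highest level, or by the mean log2 ratio of those above the range, a departure in detail from the planned rule, made after the data were seen.

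The log2 of the ratios went into limma 3.58.1 under R 4.3.3 (lmFit, eBayes with a trend on level), as a two-sided test with p-values adjusted by Benjamini-Hochberg over 18193 genes, a threshold of 0.05, no offset and no filter. The fit has 3 residual and 5.95 prior degrees of freedom. Exact permutation of 3 and 2 arrays reaches no p below 0.1 and was not used. GEO's platform annotation gave 1 symbol to 34945 probe sets, several to 932 and none to 9160, and 64 are controls. On simulated data of the same size, 200 bright genes were lowered in Dox. The fit called 13 at 1.5-fold, 195 at 2-fold and 200 at 4-fold, with 7, 13 and 5 false calls, and 1 call with no change. The simulated noise was independent and normal, with each gene's variance taken from this fit and no effect shared by an array. These counts therefore do not give the power in the real data.

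The genes and lists were chosen with earlier results of these data known. Values of every array are given for genes past the threshold and for the 6 of largest absolute log2 fold change not past it, and other genes named with such values (Anxa8, second probe sets) were chosen after their values were seen. From each other list the members past the threshold are named, at most the 3 of smallest p. Ager, Sdr9c7, Krt4, Krt13, Krt14, Krt15, Trp63, Krt1, Krt10, Krt2, Lor, Tg and Slc26a4 are named outside this rule. Other lists cover further envelope and lipid genes, epithelial keratins and identity, and markers of esophageal epithelium, skin, skeletal and smooth muscle, stroma, leukocytes, lung and thyroid. Promoter windows are RefSeq's, and Ppl has none in the table used. Alternatives changed the scaling, the offset, the level, the probe sets, the variance model, the threshold, the array weights or a replicate block, or left out 1 array. Tables used Python 3.11.15, numpy 2.4.6, pandas 2.3.3 and numba 0.67.0, and plots matplotlib 3.10.9.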

Additional observations from a re-analysis of the deposited data

How the results depend on the processing

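The number of cornified envelope genes that rose was 0 in every fit run, and their median log2 fold change stayed between -0.38 and -0.14. All genes counted 245 higher and 223 lower. Without a trend these were 6 and 0, with 0 of the envelope genes lower (2471 genes at an unadjusted p under 0.05), and with a trend on the mean log2 ratio 0, 0 and 0 (2414 genes). Quantile normalization of the ratios gave 59 higher, 14 lower and 1 envelope gene lower. Quantile normalization of the recovered signals, with stand-in signals above the recovered range and added after seeing the data, gave 311 and 119. With it 2 envelope genes were lower, Hrnr and Ppl. Centring each array on its median gave 296 and 153 with 5. Array weights gave 468 and 527, a threshold of 0.1 gave 469 and 513, and a threshold of 0.01 gave 86 and 41 with 1 envelope gene lower. The mean over all probe sets gave 148 lower. Leaving out 1 array gave 46 to 391 higher, 12 to 507 lower and 0 to 9 envelope genes lower. A level bound worked out from the ratios, also added after seeing the data, gave Tgm3 -0.76 (adjusted p = 0.0522). The differences between replicates 1 and 2 correlate at 0.0499 between the groups, which cannot show whether the replicate numbers pair the arrays. A replicate block over these numbers gave 381 higher and 514 lower, with 7 envelope genes lower.

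Directions that turned belong to genes that did not pass. Cdsn was 0.0066 with median centring and 0.070 with quantile normalization of the signals, and Ly6d 0.029 and 0.091 with the same settings and 0.012 with quantile normalization of the ratios. Krtdap was 0.0053 with quantile normalization of the signals, Ivl 0.32 with the mean over probe sets, and Tgm5 -0.045 and Abca12 -0.045 with the replicate block. With 1 array left out the log2 fold change ran between -0.21 and 0.10 for Ly6d, -0.26 and 0.0034 for Krtdap, -0.48 and 0.23 for Ivl, -0.045 and 0.26 for Tgm5, -0.13 and 0.44 for Abca12, -0.057 and 0.12 for Anxa1, -0.067 and 0.20 for Lypd3, -0.25 and 1.36 for Rhcg and -0.22 and 0.76 for Tchh. Of the values of single genes 20 changed direction, 37 lost a call, 10 gained one and 572 did neither. Causes of these changes were not tested.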
